A study of Mus with 5 samples.

Results

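The *Id* family comprises *Id1*, *Id2*, *Id3* and *Id4*, and was followed in the RNA of E14.5 mouse hearts that carry a Cre-activated *Bmp2* transgene. The genes were chosen by their Ensembl identifiers, and all 4 of them were among the 12857 genes with deposited values. Hearts of Nkx2.5Cre/+;Bmp2tg/+ embryos (labelled Nkx2.5CRE;Bmp2, transgenic below) were compared with hearts of WT embryos, in both cases after removal of the atria. In transgenic embryos, Cre made under control of *Nkx2.5* removes a stop cassette at *Rosa26*, so that mouse *Bmp2* cDNA and, through an IRES, eGFP are transcribed from CAG sequences. The transgenic line was derived from 1 targeted clone of embryonic stem cells. The label of the WT embryos does not say whether any of them carried the Cre allele. For its survival counts, the paper crossed Bmp2tg/+ males with Nkx2.5Cre/Cre females, where embryos without the transgene were Nkx2.5Cre/+. Whether the WT pools came from such a cross is not stated, and the part of the Cre allele in the values was not tested. RNA from 12 hearts per genotype was pooled by the authors into 3 pools of 4 hearts. They left out 1 WT pool because it clustered apart from the other WT pools, which left 3 transgenic and 2 WT pools, so the spread of the WT values is that of pools kept for their likeness.

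Id proteins are helix-loop-helix proteins without the basic region that contacts DNA. They pair with E proteins, the common partners of tissue-specific basic helix-loop-helix factors such as Hand and Twist, and so keep those factors from binding DNA; they are best known for holding progenitor cells in an undifferentiated, dividing state. BMP ligands bind type I and type II receptors that phosphorylate Smad1, Smad5 and Smad9, and these enter the nucleus with Smad4 and act on target genes, of which *Id1*, *Id2* and *Id3* are among the best known in many cell types. In the embryonic heart, *Id* genes are known from the endocardium, epicardium and cushion mesenchyme.

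*Id2* rose by 1.94-fold in transgenic hearts, and was the only member of the family to pass the test. *Id1* and *Id3* lay 1.24-fold and 1.22-fold above WT with no overlap between the genotypes, as was so for 35.7% of all genes, but neither passed the adjusted threshold. The study's own list of changed genes, made with edgeR, holds *Id3* as well as *Id2*, so the call of *Id3* differs here. *Id4*, which had few reads, was at 0.87-fold of WT, with overlapping pools. These folds come from log2(CPM + 0.5), where CPM is the count scaled to a common library size, fitted with limma over all 12857 genes. A gene was called where its p, adjusted by Benjamini and Hochberg's method, did not exceed 0.05. The background of such calls was 2.82% of all genes (362), and 1.22% of genes (157) were called higher and 1.59% (205) lower in transgenic hearts. With the libraries rescaled to the same total these numbers were 125 higher and 251 lower. Without WT pool 1 or WT pool 2 the calls over all genes dropped to 45 and 43, and without transgenic pool 2 to 226. Between 7427905 and 10564780 reads per pool lay behind the values. The implied library size was not the total of these reads. It was 10456517 against 10564780 reads in transgenic pool 1, and 9458797 against 9351893 reads in WT pool 1.

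**Figure D1:**
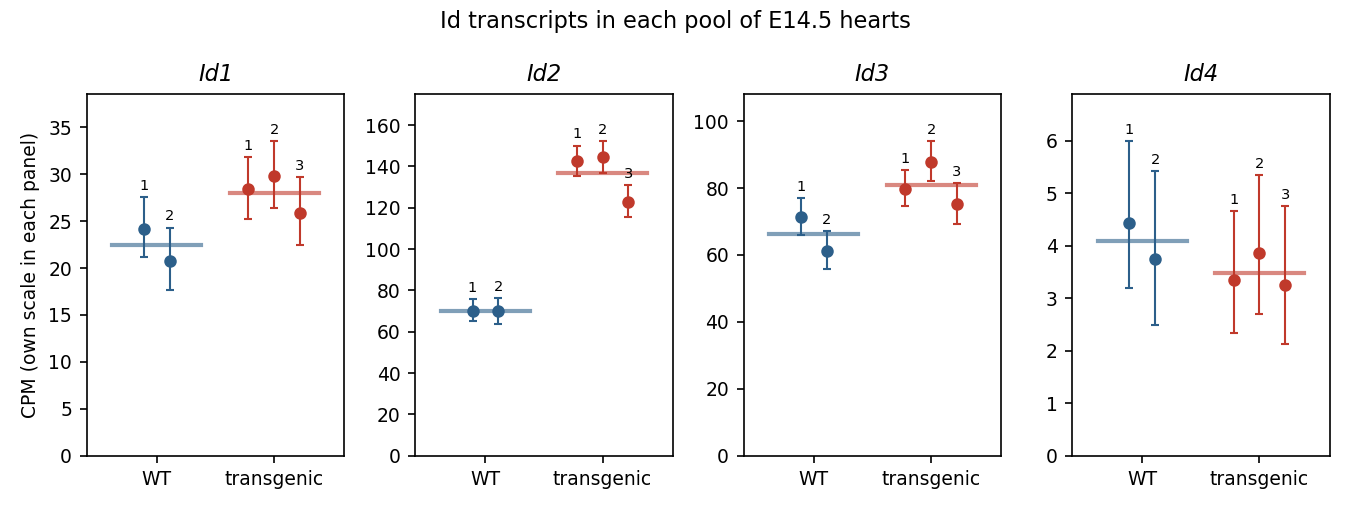
CPM of each *Id* gene in each pool (points, numbered by pool), with 95% exact Poisson intervals for counting error (bars) and the mean of each genotype (horizontal lines); each panel has its own axis from 0. The transgenic pools lie above both WT pools for *Id1*, *Id2* and *Id3*, by a wide gap only for *Id2*, and overlap the WT pools for *Id4*.

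*Id2* (ENSMUSG00000020644, chromosome 12 of GRCm38.p6, 25093799 to 25096092 in RefSeq) had 1492, 1346 and 983 reads in transgenic pools 1, 2 and 3, against 664 and 521 reads in the WT pools. In CPM, this was 136.7 ± 12.0 (SD, n = 3) in transgenic hearts and 70.02 ± 0.259 (SD, n = 2) in WT hearts, and the lowest transgenic pool was 52.7 CPM above the highest WT pool. The log2 fold change was 0.96 (standard error 0.07, 95% confidence interval 0.80 to 1.11, limma adjusted p = 1.26e-06). Among all genes, *Id2* ranked 6 by the limma p-value and 34 by the log2 fold change, so that 0.257% of genes had a larger one. It kept a limma adjusted p at or under 0.000972 with each of the 5 pools left out in turn, the WT pools included. When the variance trend of limma was left out, the adjusted p was 0.0581.

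The transgenic pools were less alike in *Id2* than the WT pools. The transgenic SD of 12.0 CPM was 3.10 times the 3.87 CPM that counting alone gives, because pool 3, at 123 CPM, lay below pools 1 and 2, at 143 and 145 CPM. The WT SD of 0.259 CPM was 0.0894 times what counting alone gives (2.90 CPM), so the agreement of the 2 WT pools is closer than their depth can resolve.

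*Id1* (ENSMUSG00000042745, chromosome 2, 152736251 to 152737410) was at 28.4, 29.8 and 25.9 CPM in transgenic pools 1, 2 and 3, and at 24.2 and 20.8 CPM in WT pools 1 and 2. All transgenic pools were above both WT pools, but the gap between the nearest pools was only 1.68 CPM, which is less than the SD of either genotype (2.004 CPM in transgenic, n = 3, and 2.43 CPM in WT, n = 2). The log2 fold change was 0.31 (standard error 0.10, 95% confidence interval 0.10 to 0.53), and the limma adjusted p was 0.112. Without WT pool 2 the log2 fold change was 0.21, with a limma adjusted p of 0.531, and without WT pool 1 it was 0.42, with 0.225. Between 155 and 297 reads per pool stood behind these values, and the SD between pools was 1.14 times (transgenic) and 1.48 times (WT) what counting alone gives.

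*Id3* (ENSMUSG00000007872, chromosome 4, 136143822 to 136145392) was at 79.9, 87.9 and 75.2 CPM in transgenic hearts, while WT hearts had 71.4 and 61.3 CPM. The genotypes again did not overlap, with 3.796 CPM between the nearest pools. The log2 fold change was 0.29 (standard error 0.08, 95% confidence interval 0.12 to 0.46) and the limma adjusted p was 0.0676. Its side of the threshold turned on single pools: without transgenic pool 3, the limma adjusted p was 0.0401 and the log2 fold change 0.34, whereas without WT pool 2 they were 0.498 and 0.18. Groups that do not overlap, as seen for *Id1*, *Id2* and *Id3*, are common in these libraries, with transgenic hearts higher throughout for 17.7% of all genes and lower throughout for 18%.

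*Id4* (ENSMUSG00000021379, chromosome 13, 48261116 to 48266028) had 35, 36 and 26 reads in transgenic hearts, against 42 and 28 reads in WT hearts. This gave 3.35, 3.86 and 3.25 CPM against 4.44 and 3.75 CPM, so that transgenic pool 2 lay between the WT pools. The log2 fold change was -0.20 (standard error 0.21, 95% confidence interval -0.66 to 0.25, limma adjusted p = 0.666). It was -0.10 without WT pool 1 and -0.31 without WT pool 2. At this depth a difference was not detectable, and the interval reaches from 0.633-fold to 1.19-fold. The upper end lies below the lower end of the interval of *Id2*, which is 1.75-fold. The SD between pools was 0.534 (transgenic) and 0.693 (WT) times what counting alone gives.

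**Figure D2:**
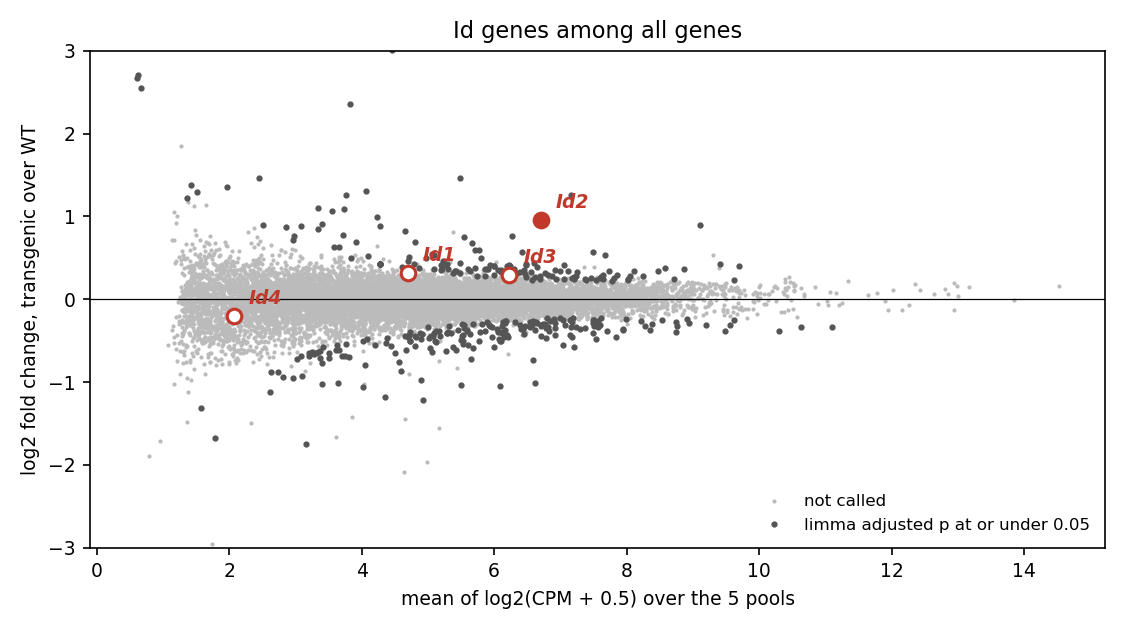
Log2 fold change of transgenic over WT hearts against the mean log2(CPM + 0.5) for all 12857 genes, with the *Id* genes ringed in red (filled where called) and genes at a limma adjusted p at or under 0.05 in dark grey; 11 genes lie beyond the axis, which ends at 3 in both directions. *Id2* is called at 0.96, and *Id1*, *Id3* and *Id4*, at 0.31, 0.29 and -0.20, are not.

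To compare the pools with each other, each transgenic pool was set over each WT pool, which gives 6 folds per gene. For *Id2* these ran from 1.75-fold to 2.07-fold, with a median of 2.04-fold, and all 6 of the 95% exact binomial intervals lay above 1. The intervals hold counting error alone, as duplicates made by PCR are not told from separate molecules. The lower folds, 1.75 and 1.76, were those of transgenic pool 3 over WT pools 1 and 2. For *Id1* the folds ran from 1.07 to 1.44, and 4 of the 6 intervals excluded 1; the other 2 were those of transgenic pools 1 and 3 over WT pool 1. For *Id3* they ran from 1.05 to 1.44, and 5 of the 6 intervals excluded 1, the exception being transgenic pool 3 over WT pool 1. Of the *Id4* folds, 5 were below 1 and 1 above it, from 0.732 to 1.03, and all 6 intervals included 1. The lowest *Id2* fold was thus above the highest fold of *Id1* and of *Id3*. These folds share pools, and are not 6 independent replicates.

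**Figure D3:**
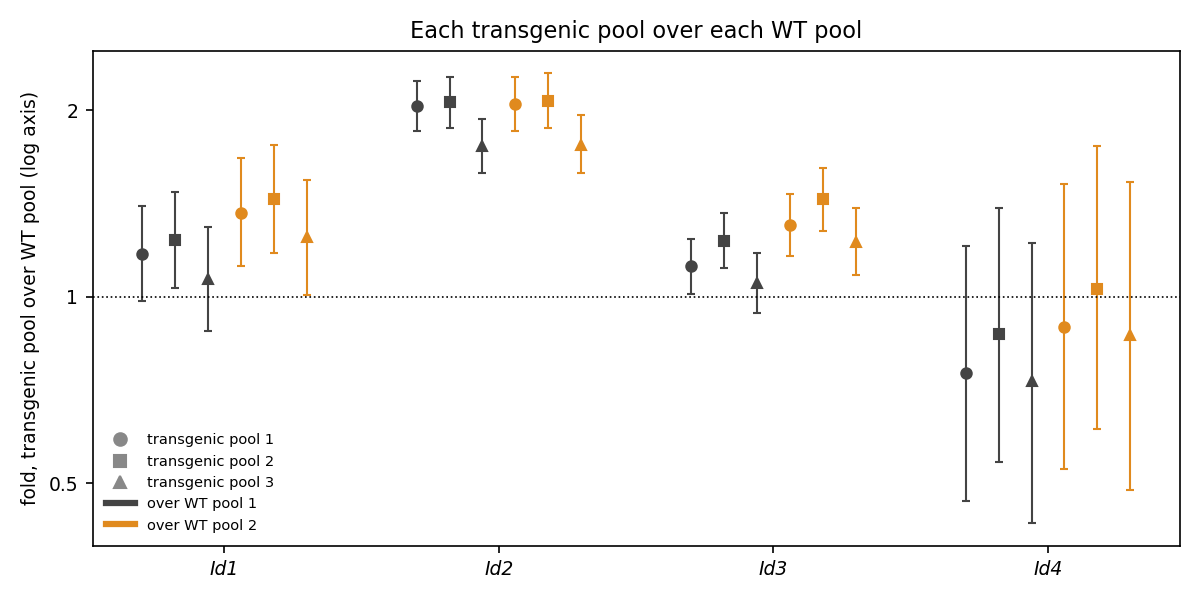
Fold of each transgenic pool (marker shape) over each WT pool (colour) for the *Id* genes, on a log axis, with 95% exact binomial intervals for counting error; the dotted line marks no difference. The *Id2* folds lie between 1.75 and 2.07, above the *Id1* and *Id3* folds (1.05 to 1.44), and every *Id4* interval crosses 1.

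Whether the members differed in the size of their response was examined with the ratio of one transcript to another inside each pool, which cancels what the pool does to both. A ratio of this kind also carries the lengths of both transcripts, so only its change between genotypes was read. The log2 ratio of *Id2* to *Id3* was 0.83, 0.71 and 0.71 in transgenic hearts, against -0.02 and 0.19 in WT hearts. It moved by 0.67, which means that the response of *Id2* was 1.59 times that of *Id3*, and the genotypes did not overlap. The log2 ratio of *Id2* to *Id1* moved by 0.64 (1.56 times), from 1.52 and 1.73 in the WT pools to 2.31, 2.26 and 2.23 in the transgenic pools. These changes were larger than the spread of the ratios, which had an SD of at most 0.15 within a genotype for either pair.

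The measured ratio of *Id1* to *Id3* differed little between pools. Its log2 value was -1.48, -1.54 and -1.52 in transgenic hearts, against -1.54 and -1.54 in WT hearts. The genotypes overlapped, and the responses of the genes differed by 0.03 on the log2 scale, less than the SD of this ratio between transgenic pools (0.0345). Counting error per pool was 5.80% to 8.03% for *Id1* and 3.46% to 4.68% for *Id3*. The agreement of the pools is thus closer than the reads can resolve, and does not show that the responses were equal. Relative to *Id4*, the response was larger for *Id2* by 1.16, for *Id1* by 0.52 and for *Id3* by 0.49 on the log2 scale, each without overlap of the genotypes. The *Id4* side of these ratios rests on 26 to 42 reads per pool, with a counting error of 15.4% to 19.6%. Pools of a genotype thus agree more closely in these ratios than the reads can resolve. How often ratios of other genes separate the genotypes was not counted, while 35.7% of single genes do so. The pairs also share genes, and are not 6 independent results. In a two-sided exact permutation test of 3 pools against 2, the smallest p that can be reached is 0.1. Of the 6 pairs, 5 had an exact permutation p of 0.1 (0.12 after Benjamini-Hochberg adjustment over the 6 pairs), and *Id1* against *Id3* had 0.5 (0.5 adjusted), so no pair could pass 0.05 in this test.

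**Figure D4:**
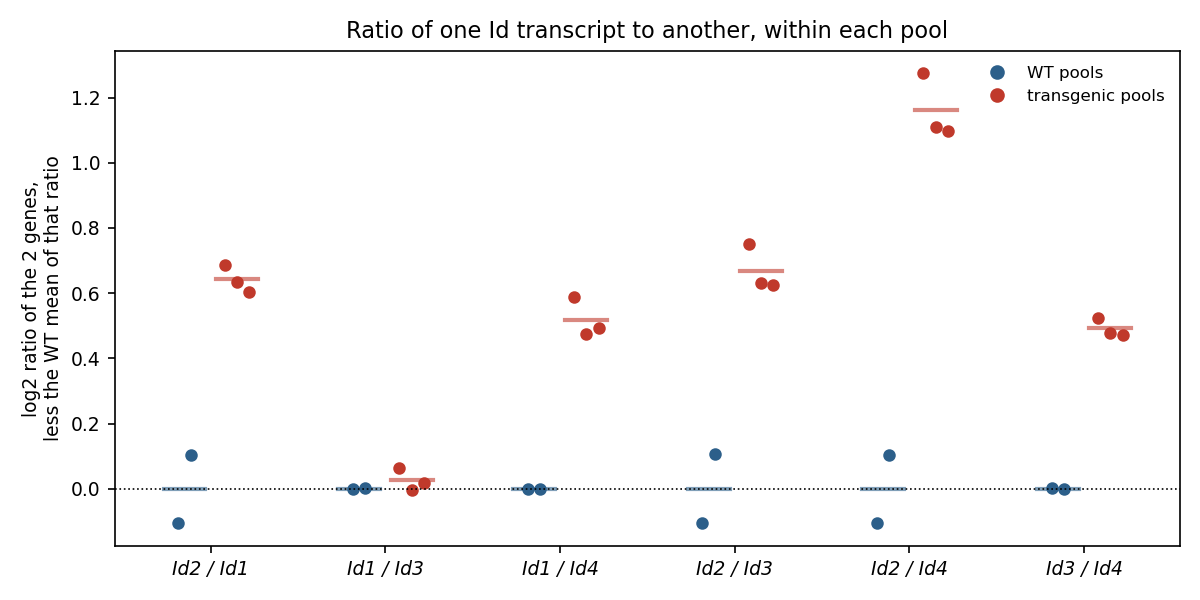
Log2 ratio of one *Id* transcript to another in each pool, from log2(CPM + 0.5), with the WT mean of that ratio subtracted; points are pools and short lines are genotype means. The ratios of *Id2* to *Id1* and to *Id3* are higher by 0.64 and 0.67 in transgenic pools, and the ratio of *Id1* to *Id3* overlaps between the genotypes.

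Together, the *Id* genes gained 86.3 CPM, with 249.2 ± 20.0 CPM (SD, n = 3) in transgenic against 162.9 ± 10.3 CPM (SD, n = 2) in WT hearts, so that the sum was 1.53-fold. *Id2* made up 77.3% of that gain, *Id3* 17.0% and *Id1* 6.43%, and *Id4* changed it by -0.705%. Without *Id2*, the sum of the other members came to 112.5 ± 8.71 CPM (SD, n = 3) in transgenic against 92.9 ± 10.1 CPM (SD, n = 2) in WT hearts, which is 1.21-fold. The sum follows the members with the most reads, and was not tested.

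The make-up of the family's reads changed accordingly. *Id2* took 41.2% and 44.9% of the *Id* reads in WT pools 1 and 2 (95% exact Clopper-Pearson intervals 38.8 to 43.7 and 42.0 to 47.8). In the transgenic pools it took 56.1%, 54.3% and 54.1% of them, with a lowest interval bound of 51.8. In WT pool 1 *Id3* had the larger share, at 41.9%, and in WT pool 2 *Id2* did; in all transgenic pools *Id3* was down to between 31.4% and 33.1%. The share of *Id1* was 14.2% and 13.4% in WT pools and between 11.2% and 11.4% in transgenic pools, and that of *Id4* 2.61% and 2.41% in WT pools and 1.32% to 1.45% in transgenic pools. Shares add up to the whole, so a larger *Id2* share lowers the others by construction, and they are shares of reads, not of molecules, since transcript lengths differ.

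**Figure D5:**
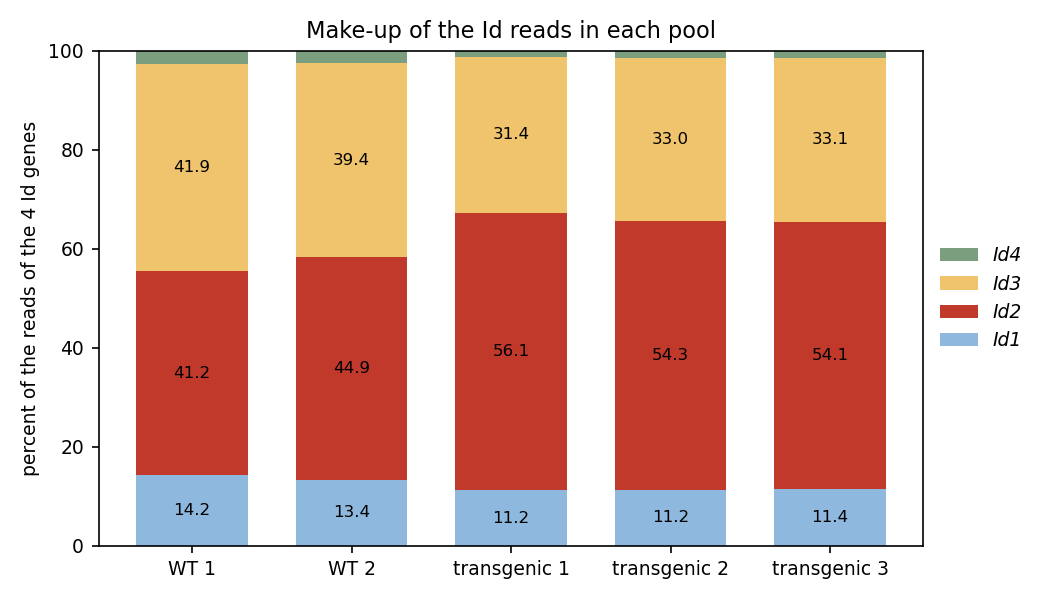
Share of the reads of the *Id* genes that each gene took in each pool, in percent, stacked from *Id1* at the bottom to *Id4* at the top; there are no error bars, and the shares in the text carry their intervals. *Id2* takes 41.2% and 44.9% in the WT pools and 54.1% to 56.1% in the transgenic pools.

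The *Id* genes shared an order among the pools that the choice of genes did not use. In each of them transgenic pool 2 was the highest and pool 3 the lowest of the transgenic pools, an order held by 18.5% of all genes, and WT pool 1 was above WT pool 2, as for 50.2% of all genes. Much of this order lay within counting error. Transgenic pools 1 and 2 of *Id1* and *Id2* differed by less than the SD that counting alone gives. So did the WT pools of *Id2*, and all pools of each genotype in *Id4*. The order of transgenic pools 1 and 2 in *Id4* rests on 35 against 36 reads. *Bmp2* itself was at 23.0, 27.1 and 23.3 CPM with the transgene, against 14.1 and 10.2 CPM in WT hearts, so its highest transgenic pool was pool 2 and its higher WT pool was pool 1, but its lowest transgenic pool was pool 1 and not pool 3. These values do not tell transgene from endogenous *Bmp2*. *Id2*, at 0.96, and *Bmp2*, at 0.99 (standard error 0.13, limma adjusted p = 0.000712), had log2 fold changes that differed by less than the standard error of the latter.

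The genes most like *Id2* over the 5 pools were sought among all genes, by the root mean square difference of log2 values after each gene was centred on its own mean. These were *Cdh20*, a type II cadherin, with a difference of 0.07, *Ass1*, an enzyme of arginine synthesis, with 0.10, *Cacna1g*, a T-type calcium channel, with 0.11, *Smad6*, an inhibitory Smad, with 0.12, and *Myl7*, a myosin regulatory light chain, with 0.13. *Cdh20* was at 16.0, 16.6 and 13.5 CPM in transgenic hearts, against 7.40 and 6.70 CPM in WT hearts. *Myl7*, which is most abundant in atrial muscle, was at 653, 869 and 617 CPM in transgenic hearts, against 384 and 373 CPM in WT hearts, and the part of any atrial tissue left on the ventricles was not tested. In all of these genes pool 2 was the highest and pool 3 the lowest transgenic pool, as in *Id2*, and all were called higher in transgenic hearts. As the genes were picked for their likeness to *Id2* in these same pools, this order and rise are not a separate result. The likeness is a description over 5 pools and rests mostly on the difference between the genotypes.

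Other parts of the BMP pathway could be followed only where a symbol was paired with an identifier, and such pairs came from the genes that the study listed for their change in these same libraries, *Id2* and *Id3* included. That list paired 405 identifiers of the table with a symbol. Of 108 entries in the lists of pathway genes and cell type markers, 25 had an identifier, so these counts give no rate of change for any pathway. Among the ligands, 2 of 7 could be followed: *Bmp2* rose, and *Bmp10*, a ligand of trabecular myocardium, fell by 1.18 (log2) with a standard error of 0.15 and a limma adjusted p of 0.000626. Among receptors and signalling Smads, 2 of 12 could be followed. *Smad9*, a receptor-activated Smad, was at 23.0, 27.5 and 20.9 CPM in transgenic pools and at 8.88 and 9.65 CPM in WT pools, a log2 fold change of 1.31. The type II receptor *Bmpr2* was at 31.9, 23.7 and 25.9 CPM against 37.2 and 35.4 CPM, with a limma adjusted p of 0.0522.

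Of the feedback genes and antagonists, 2 of 12 could be followed, and both rose: *Smad6* by 0.75 and *Smad7* by 0.54 on the log2 scale. The log2 fold changes of these feedback inhibitors lay between that of *Id2* and those of *Id1* and *Id3*. Both could be followed only through the study's list of changed genes, so this order is not a separate result. Of the other transcription factors known as BMP targets, 4 of 9 could be followed. *Tbx3*, a repressor of chamber genes, rose by 0.69 (17.2, 18.8 and 17.4 CPM against 11.7 and 10.1 CPM), *Tbx20* by 0.41 and *Gata4*, a factor of cardiac specification, by 0.23 on the log2 scale. Respectively, limma gave them adjusted p-values of 0.00547, 0.00162 and 0.0411. *Gata6* was at 162, 166 and 169 CPM against 148 and 138 CPM, with a limma adjusted p of 0.0591.

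Among the basic helix-loop-helix factors of the heart and the related Hey factors, 4 of 12 could be followed, and all 4 rose. *Atoh8* rose most, by 1.08 (log2) with a standard error of 0.17 and a limma adjusted p of 0.00214, from 9.41 and 6.70 CPM in the WT pools to 16.5, 21.6 and 14.8 CPM in the transgenic pools. *Hand1*, *Hand2* and *Hey2* rose by 0.50, 0.32 and 0.24 on the log2 scale, with limma adjusted p-values of 0.0463, 0.0132 and 0.0267. The pools of *Atoh8* and *Hey2* had the same order as those of the *Id* genes, and those of *Hand1* and *Hand2* did not. Over all genes, the order of the transgenic pools was held by 18.5% and that of the WT pools by 50.2%. The E proteins that Id proteins bind, *Tcf3*, *Tcf4* and *Tcf12*, had 0 of 3 identifiers paired and are not analysed here. Of the cell cycle genes, 2 of 13 could be followed: *Mycn*, which encodes n-Myc, rose by 0.34 (limma adjusted p = 0.0478), and *Cdkn1c*, an inhibitor of cyclin-dependent kinases, was at 234, 245 and 273 CPM against 305 and 278 CPM, with a limma adjusted p of 0.0903.

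*Id* genes are also active outside the myocardium, and markers of other cell types moved between the genotypes. In bulk RNA, fewer cells of a type and less RNA per cell cannot be told apart. Of the endothelial and endocardial markers, 3 of 8 could be followed: *Kdr* and *Tie1*, both receptors of endothelial cells, fell by 0.46 and 0.31 on the log2 scale (limma adjusted p-values of 0.00286 and 0.0277), and *Cdh5* was at 239, 204 and 236 CPM against 275 and 263 CPM, with a limma adjusted p of 0.0563. Their sum was 426 to 506 CPM in transgenic and 590 to 603 CPM in WT pools. As these markers were available only through the study's list of changed genes, the sum is no measure of the amount of endothelium. Of the mural cell markers, 3 of 6 could be followed, of which *Rgs5* and *Myh11* fell and *Pdgfrb* did not pass the test, with a sum of 138 to 157 CPM in transgenic and 185 to 188 CPM in WT pools. Of the epicardial and fibroblast markers, 3 of 7 could be followed. *Tbx18*, an epicardial factor, rose by 0.37, *Pdgfra* fell by 0.34 on the log2 scale, and *Dcn* did not pass the test. The sum of these was 344 to 369 CPM in transgenic and 377 to 402 CPM in WT pools. Markers of cardiomyocytes, cushion mesenchyme and blood cells had no identifier paired and are not analysed here, so the labelled tissue could not be checked against them, and the part of the makeup of the tissue in the *Id* values was not tested.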

How the data were processed

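The authors removed adaptors with cutadapt, quantified single-end reads of polyA RNA by RSEM against Ensembl genes of GRCm38, and deposited CPM values for 12857 genes. The processing notes of the submitters also name Bowtie and Picard. In each library 100% of values were whole multiples, within 0.01 read, of what 1 read was worth. A count of 0 allows up to 3 reads, 0.287 to 0.402 CPM. Each pool was 1 replicate, and 0 columns were left unused.

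The main test was limma 3.58.1 (R 4.3.3) on log2(CPM + 0.5), with a variance trend and no covariates, adjusted by the Benjamini-Hochberg method at 0.05. The study used edgeR, which needs counts, so edgeR 4.0.16 and DESeq2 1.42.0, run on reads recovered from the values, were alternatives. A filter (1 CPM or more in 2 or more libraries) removed 0 genes. The scripts were tested on simulated data. With pools as replicates, p-values measure the spread between pools. In limma that spread is drawn largely from other genes, with a median of 12.62 of 15.62 degrees of freedom.

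Symbols came from the rule for the family and from the gene list of the study, and positions from RefSeq, matched by symbol. The genes named were the family, the listed genes and the 5 genes most like each called member. Beyond that rule, *Bmpr2*, *Gata6* and *Cdkn1c* and the markers *Cdh5*, *Pdgfrb* and *Dcn*, which did not pass, were named after their values were seen. The members and lists were chosen with earlier results of these data known. Python 3.11.15 with scipy 1.17.1 was used for intervals and exact tests.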

Additional observations from a re-analysis of the deposited data

How the results depend on the processing

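The directions of *Id1*, *Id2*, *Id3* and *Id4* were the same under all alternatives run, which were 16 for each gene and 15 for *Id4*, which the filter of a mean of at least 5 CPM removes. *Id2* had log2 fold changes from 0.91 to 1.03 and was called in 15 of 16. The exception was limma without the variance trend (log2 fold change 0.96, adjusted p = 0.0581), where the number of genes called over the whole table was 10 in place of 362. That number was 232 with DESeq2, 655 with the pool number as a replicate block, and between 43 and 464 with each pool left out. Transgenic pool 3 has no WT pool of its number, so the block also takes it out of the comparison, and the log2 fold changes of the *Id* genes under the block are those without transgenic pool 3, where 464 genes were called. The deviations of same-numbered pools had correlations of -0.03 and -0.05 across genes for numbers 1 and 2. With only 2 WT pools, their deviations mirror each other, so these correlations cannot show whether same-numbered pools share more than a number. With the replicate block the log2 fold change of *Id3* was thus 0.34 (limma adjusted p = 0.0196), and this is not a second, separate call. With each pool left out it ranged from 0.18 to 0.40, and *Id3* was called among these only without transgenic pool 3, at the same 0.34 (adjusted p = 0.0401, against 0.0196 to 0.498 over all alternatives). DESeq2 gave no adjusted p for *Id1* and *Id4*, and neither was called by limma or edgeR in any other alternative. The log2 fold change of *Id1* ranged from 0.21 without WT pool 2 to 0.42 without WT pool 1. The limma p of *Id1* before adjustment, across all pools, was 0.00752. For *Id4* the log2 fold change ranged from -0.31 to -0.10 without the same pools, and the limma p before adjustment, across all pools, was 0.356. The causes were not tested. Without a WT pool, the lone WT pool is assumed to vary like the transgenic pools, and the exact test of the ratios was not run. The ratios between *Id* genes kept their direction under all 7 alternatives, from 0.56 to 0.77 for *Id2* over *Id3*. *Id4* had 26 to 42 reads per pool.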
